A study of Mus musculus with 6 samples.

Results

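Gpcpd1 and 9 other genes of choline and ethanolamine phospholipid metabolism were followed in mouse liver with and without di(2-ethylhexyl) phthalate (DEHP), a plasticizer. The 10 members were taken as the rows of the deposited gene count table whose gene name is Gpcpd1, Chka, Chkb, Pcyt1a, Pcyt2, Chpt1, Cept1, Pemt, Chdh or Bhmt, out of 41096 rows that carry a gene name. All 10 had a row, and all 10 were among the 12468 genes with enough counts to be tested. Gpcpd1 was chosen by its adjusted p in the comparison of exposed with control livers (0.0188, edgeR, Benjamini-Hochberg over all genes tested), so its difference is given as a description and supports nothing further. The other 9 were listed for their place in the pathway, with earlier results of these data known.

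The study sequenced polyadenylated RNA from whole liver in 3 libraries from mice without DEHP and 3 from mice with DEHP. The table heads the exposed libraries High, and they were taken as the libraries with DEHP because the series has no other exposed group. The labels give no strain, genotype, age, sex, dose or duration, and they do not say that libraries came from separate animals. The p-values therefore weigh the group difference against the spread between these libraries, which may not be that between animals. Totals ran from 10410098 to 14229803 counts a library. Hepatocyte markers were abundant in all 6 libraries: Alb, serum albumin, ran from 64373 to 108084 CPM (counts scaled to a common library size) and the hepatocyte transcription factor Hnf4a from 572 to 867 CPM. Control replicates 1 and 2 stood apart from the other 4 libraries in interferon-stimulated genes, whose summed level over 12 genes was 3523 and 2616 CPM there, 337 CPM in control replicate 3 and 289 to 364 CPM in the exposed libraries. The summed level of 10 Kupffer cell and macrophage markers was likewise 795 and 715 CPM in those controls, 232 CPM in control replicate 3 and 249 to 365 CPM with DEHP. The part of these differences in the results below was not tested, and results are given with those 2 controls and, where it bears on them, without. The fit without them holds 1 control library, which is assumed to vary like the exposed ones. The summed markers of endothelium, stellate cells, cholangiocytes, lymphocytes, neutrophils, erythroid cells, adipocytes and skeletal muscle overlapped between the groups, with Ly6g, Lep and Myh4 at 0 in all 6 libraries and the adipocyte sum at 20.1 CPM in DEHP replicate 3 against at most 1.34 CPM in the others.

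Phosphatidylcholine is the main phospholipid of cell membranes and of the surface of lipoproteins, and the liver makes it by a pair of routes. In the CDP-choline route, choline is phosphorylated by a choline kinase, activated to CDP-choline by a cytidylyl transferase and joined to diacylglycerol by a phosphotransferase, and a parallel set of steps turns ethanolamine into phosphatidylethanolamine. In hepatocytes the methyltransferase PEMT also converts phosphatidylethanolamine directly to phosphatidylcholine, using methyl groups from S-adenosylmethionine. Breakdown of phosphatidylcholine through lysophosphatidylcholine leaves glycerophosphocholine, from which choline is released by phosphodiesterases such as GPCPD1. Choline that is not used for phospholipid is oxidised in mitochondria to betaine, which donates a methyl group to homocysteine.

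Gpcpd1, which encodes a glycerophosphocholine phosphodiesterase, had 758, 1173 and 754 counts in control replicates 1 to 3 and 1732, 3752 and 3727 counts in DEHP replicates 1 to 3. Scaled to library size, these were 53.7, 92.7 and 66.8 CPM without DEHP and 175, 327 and 317 CPM with it. Every exposed library lay above every control, and DEHP replicate 1 was the lowest of the exposed. The group means were 71.1 ± 19.8 and 273 ± 84.8 CPM (SD, n = 3), a log2 fold change of 1.94 ± 0.27 (SE), or 3.84-fold. By p-value Gpcpd1 stood at rank 6 of the 12468 genes. In bulk liver, a change in the number of cells of a type and a change in RNA per cell cannot be told apart. In control replicate 3, which did not share the high interferon and macrophage levels of the other controls, Gpcpd1 lay between them. The part of those levels in the Gpcpd1 difference was not tested.

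The rows of the table have gene identifiers of the C57BL/6NJ genome, and in its coordinates Gpcpd1 is a protein-coding gene on the minus strand of chromosome 2 from 140251282 to 140317725, and no other row overlaps it. Its call depended on which libraries were included. The log2 fold change ran from 1.78 to 2.20 over the fits that left out 1 library, and the adjusted p (edgeR) was lowest without DEHP replicate 1 (6.64e-04) and highest when DEHP replicate 3 was left out (0.157). The adjusted p was also above 0.05 without control replicate 1 (0.119) and without DEHP replicate 2 (0.128). With control replicates 1 and 2 both left out, the log2 fold change was 2.05 and the adjusted p 0.114.

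**Figure D1:**
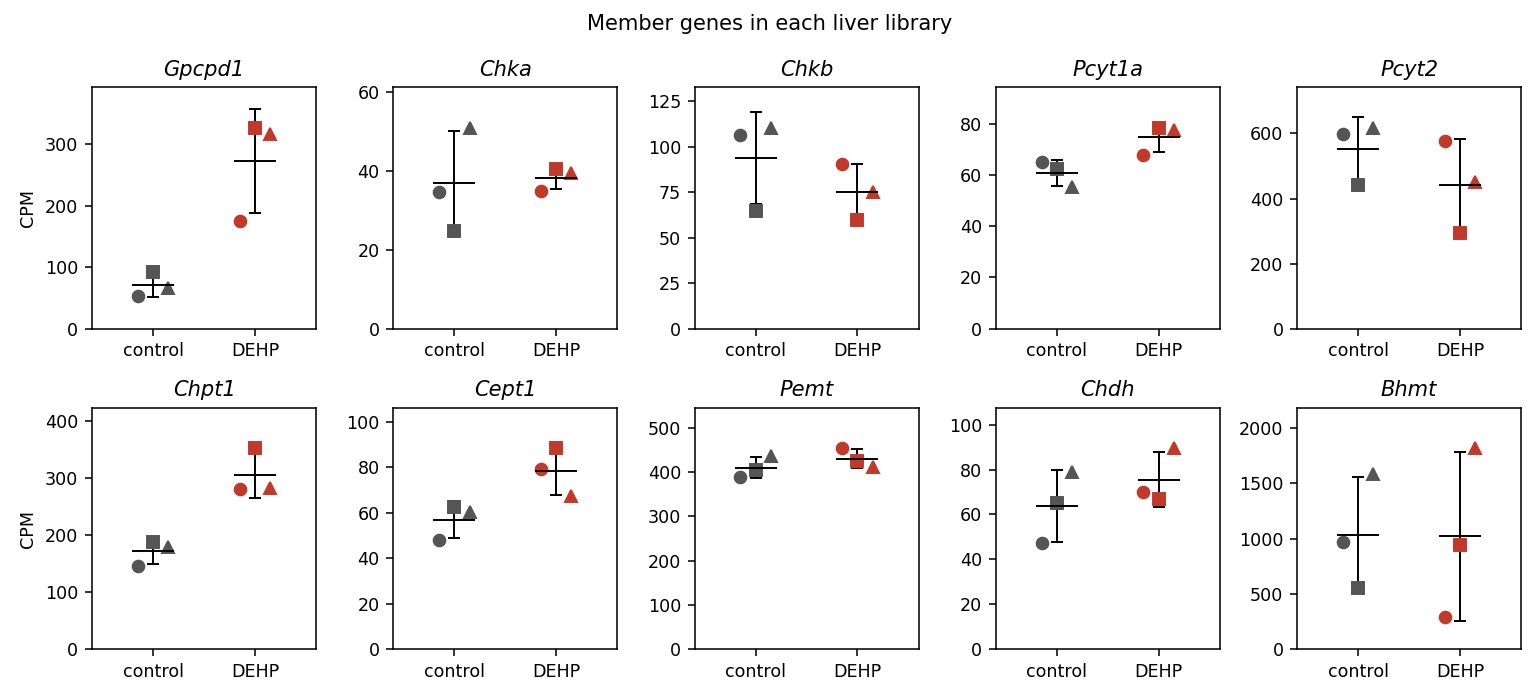
CPM of each member in each library, with a panel per gene and its own axis from 0; circles, squares and triangles are replicates 1, 2 and 3 of a group, and the bars give the mean and SD. Gpcpd1 lies between 53.7 and 92.7 CPM in controls and between 175 and 327 CPM with DEHP, while the Bhmt groups overlap over most of their range.

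Of the 10 members, Gpcpd1 alone passed an adjusted p of 0.05, the value that chose it. Over all genes 0.0722% were called at that threshold. At an unadjusted p of 0.05, 2 of the 9 members other than Gpcpd1 were higher with DEHP (Chpt1 and Cept1), against 6.11% of all genes. Of these 9, 0 were lower, against 6.97%. The groups did not overlap for 3 of the 9, all higher with DEHP (Chpt1, Cept1 and Pcyt1a), against 9.17% of all genes. They were separate and lower for 0 of the 9, against 8.57%. The median log2 fold change was 0.07 over the 9 members other than Gpcpd1, 6 of which were positive, and -0.03 over all genes. Of all genes 47.1% were positive.

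Promoters were read from RefSeq on GRCm38.p6 for the windows from 250 bases before to 50 bases after a transcript start. Of the 10 members 8 had an entry, and Gpcpd1 and Pcyt2 did not. The promoters of Chpt1, the phosphotransferase of the CDP-choline route, and Bhmt, which uses betaine, are printed, since these were the member with the next largest difference after Gpcpd1 and the member that varied most between libraries. Capitals mark each AGGTCA, the half-site read by many nuclear receptors, searched on both strands. The Chpt1 window is chr10:88503921-88504220 on the minus strand, and the Bhmt window chr13:93637709-93638008 on the minus strand, both printed 5′ to 3′ along the gene.
Chpt1: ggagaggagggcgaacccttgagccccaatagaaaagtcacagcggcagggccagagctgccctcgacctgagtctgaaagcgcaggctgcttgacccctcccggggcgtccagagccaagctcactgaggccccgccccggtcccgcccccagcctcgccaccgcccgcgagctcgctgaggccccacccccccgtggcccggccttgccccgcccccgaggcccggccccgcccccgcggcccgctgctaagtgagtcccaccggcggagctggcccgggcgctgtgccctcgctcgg
Bhmt: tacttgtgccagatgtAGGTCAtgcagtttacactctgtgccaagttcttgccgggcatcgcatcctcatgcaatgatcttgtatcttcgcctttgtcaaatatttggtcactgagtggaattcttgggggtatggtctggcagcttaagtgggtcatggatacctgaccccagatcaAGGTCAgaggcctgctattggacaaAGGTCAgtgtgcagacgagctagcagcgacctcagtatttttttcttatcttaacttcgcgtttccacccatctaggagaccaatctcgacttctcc

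The Chpt1 window was 75.3% G and C with 29 CG dinucleotides, against medians of 52.7% and 7 over 32851 windows, and it held 0 matches to AGGTCA on either strand. The Bhmt window was 48.0% G and C with 8 CG dinucleotides and held 3 matches, all on the printed strand, beginning at bases -234, -72 and -47 from the start. At least 1 match occurred in 16.3% of all windows and at least 3 in 0.180%. Among the 15 windows of the 8 members, the other match was in 1 of the 3 windows of Pcyt1a, on the opposite strand. A match is a description of these letters, and no binding was measured here.

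Chpt1 encodes cholinephosphotransferase, which joins CDP-choline to diacylglycerol in the last step of the route. It stood at 147, 188 and 180 CPM in controls and 281, 352 and 282 CPM with DEHP. The lowest exposed library lay well above the highest control. The log2 fold change was 0.83 ± 0.19 (SE), or 1.78-fold, and did not pass with edgeR over all genes (adjusted p = 0.143). Chpt1 did pass with DESeq2 (adjusted p = 0.00625, where 2.37% of genes were called), with edgeR and no low-count filter (adjusted p = 0.00610, 2.41% called) and without control replicate 3 (adjusted p = 0.0437, 3.10% called). With control replicates 1 and 2 left out its log2 fold change was 0.78 (edgeR adjusted p = 0.908). The no-filter fit gave nearly the same SE to Pemt (0.21) and Chka (0.22), though 0.84 to Bhmt. The coefficients of variation of Pemt and Chka among controls were 5.96% and 35.8%, and their SEs in the filtered fit 0.18 and 0.24. Leaving out control replicate 3 kept only control replicates 1 and 2, which had the high interferon and macrophage levels. The Chpt1 row spans chromosome 10 from 92551508 to 92607026 and overlaps Sycp3 on the other strand, which held 7 to 25 counts a library.

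Cept1 encodes the choline/ethanolamine phosphotransferase, which completes both phosphatidylcholine and phosphatidylethanolamine. Its level was 47.8, 62.7 and 60.4 CPM in controls and 79.2, 88.4 and 67.3 CPM with DEHP. The groups did not overlap, although DEHP replicate 3 lay close to the highest control. The log2 fold change of 0.46 ± 0.20 (SE) did not pass (edgeR adjusted p = 0.353), and it was 0.39 without control replicates 1 and 2. The Cept1 row shares 771 bases with Dennd2d on the other strand, which held 72 to 179 counts a library. Set against each other per kilobase of the gene length in the table, Chpt1 made up 52.8%, 52.3% and 52.1% of the summed level of both phosphotransferases in controls and 56.5%, 59.3% and 60.6% with DEHP. That share does not depend on library scaling, and its control values lay within a narrow range below all 3 exposed values. Its level rests on the lengths in the table, and Chpt1 was already separate by itself. How often such a share is separate for other gene pairs was not tested. The share of Pcyt1a in Pcyt1a plus Pcyt2 overlapped, at 7.82%, 9.91% and 6.51% in controls and 8.39%, 17.2% and 11.8% with DEHP.

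The cytidylyl transferases, which activate phosphocholine and phosphoethanolamine, did not pass. Pcyt1a, the enzyme that usually sets the pace of the CDP-choline route, was 65.2, 62.4 and 55.4 CPM in controls and 68.1, 78.6 and 77.6 CPM with DEHP. Its groups were separate, but DEHP replicate 1 was only slightly above control replicate 1, and the log2 fold change was 0.29 ± 0.18 (SE, edgeR adjusted p = 0.517), or 0.45 without control replicates 1 and 2. Pcyt2, its counterpart for ethanolamine, was 598, 441 and 618 CPM in controls and 578, 293 and 452 CPM with DEHP. Those groups overlapped, with DEHP replicate 2 the lowest of the 6 libraries, and the log2 fold change was -0.32 ± 0.25 (SE, edgeR adjusted p = 0.614). Without DEHP replicate 2 it was -0.09, and without DEHP replicate 1 it was -0.55.

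Choline kinases carry out the opening step of the route. Chka had 34.7, 24.9 and 51.0 CPM in controls and 35.0, 40.5 and 39.4 CPM with DEHP. Its exposed values fell within the control range, and the log2 fold change was 0.06 ± 0.24 (SE, edgeR adjusted p = 0.947), with -0.16 without control replicate 2 and 0.38 without control replicate 3. Chkb had 107, 64.8 and 110 CPM in controls and 90.4, 59.8 and 75.2 CPM with DEHP. The groups overlapped through control replicate 2, and the log2 fold change was -0.32 ± 0.23 (SE, edgeR adjusted p = 0.599), or -0.55 without control replicates 1 and 2. The Chkb row spans Cpt1b on the same strand, which held at most 9 counts a library. Per kilobase, Chka made up 13.6%, 15.6% and 18.2% of the summed kinase level in controls and 15.8%, 24.6% and 20.2% with DEHP, with overlapping groups. These shares rest on the lengths in the table. Whether the 5802 bases given for Chkb include bases of Cpt1b was not tested.

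Pemt, the phosphatidylethanolamine methyltransferase, was the steadiest member. It had 389, 404 and 437 CPM in controls and 454, 425 and 411 CPM with DEHP. The log2 fold change was 0.07 ± 0.18 (SE, edgeR adjusted p = 0.911), and it ran from 0.03 to 0.14 with 1 library left out. Its coefficient of variation was 5.96% among controls and 5.11% among exposed livers, against medians of 18.0% and 17.2% over the 9168 genes with a mean of at least 5 CPM. Both groups lay within a narrow band and overlapped.

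**Figure D2:**
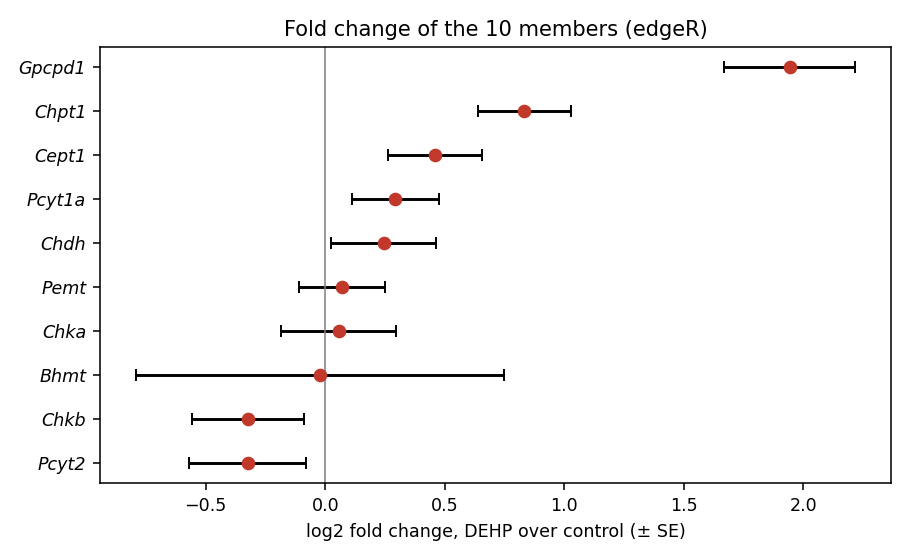
Log2 fold change of DEHP over control for the 10 members from edgeR with all 6 libraries, on the horizontal axis, with bars of 1 SE. Gpcpd1 lies at 1.94 and Chpt1 at 0.83, and the bar of Bhmt (SE 0.77) is the longest of the 10.

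The oxidation branch begins with Chdh, the mitochondrial choline dehydrogenase. Chdh had 47.3, 65.0 and 79.0 CPM in controls and 70.2, 66.8 and 89.5 CPM with DEHP. The groups overlapped, and the log2 fold change was 0.24 ± 0.22 (SE, edgeR adjusted p = 0.681). With control replicates 1 and 2 left out it was -0.0547. Chdh shares 529 bases with Cacna1d on the other strand, which held 59 to 130 counts a library.

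Bhmt, betaine-homocysteine methyltransferase, differed more between libraries of a group than between groups. It had 967, 556 and 1587 CPM in controls and 294, 947 and 1819 CPM with DEHP. The lowest and the highest library of the 6 were both exposed. Its coefficient of variation was 50.1% among controls and 75.0% with DEHP, the highest of the members in each group, and the log2 fold change was -0.02 ± 0.77 (SE, edgeR adjusted p = 0.995). Leaving out 1 library gave values from -0.74 to 0.44, and leaving out control replicates 1 and 2 gave -0.63. Control replicates 1 and 2 were the 2 lowest controls, while DEHP replicate 1 was lower still.

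Counts of Bhmt are also uncertain because 3 rows of the table are described as Bhmt: the row with that name, Gm5096 and an unnamed locus. The share of their summed counts that fell in the Bhmt row ran from 36.3% to 53.2% over the 6 libraries. In the GENCODE M21 transcripts, 63.4% of the 31-base stretches of the Bhmt messenger RNA also occur in the Gm5096 transcript, and 36.5% in that of the pseudogene Bhmt-ps1, but only 1.63% in that of its neighbour Bhmt2. Summed over the 3 rows, the level was 2663, 1223 and 2980 CPM in controls and 679, 2526 and 4219 CPM with DEHP. The order of the libraries within each group was that of the Bhmt row alone, and the log2 fold change of the sum, an alternative chosen after the data were seen, was 0.11 ± 0.74 (SE, edgeR adjusted p = 0.967).

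**Figure D3:**
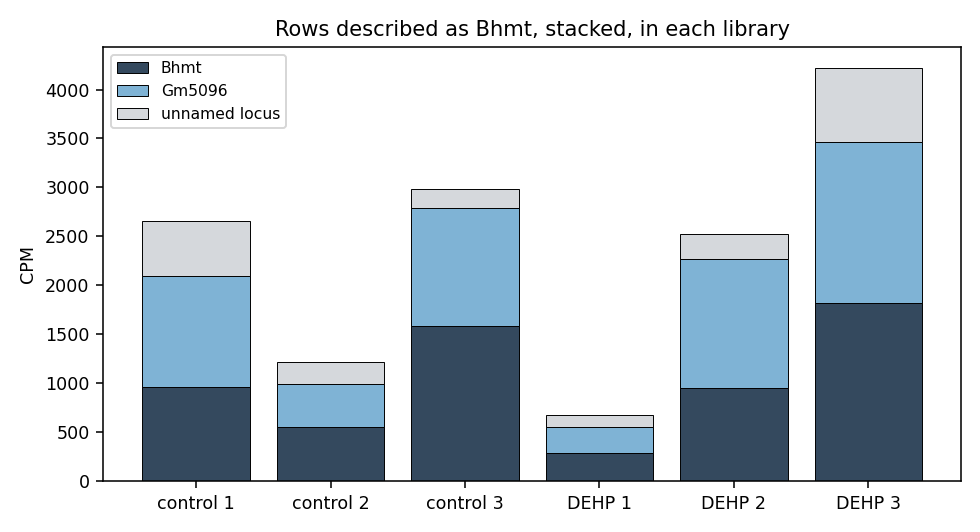
CPM of the 3 rows described as Bhmt, stacked for each of the 6 libraries on the horizontal axis. The stack is lowest in DEHP replicate 1 (679 CPM) and highest in DEHP replicate 3 (4219 CPM), and the 3 rows contribute to every library.

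Levels of different members were compared per kilobase of the gene length in the table, so tiers and ranks hold only for those lengths. For Bhmt that length is 5422 bases, while its GENCODE M21 transcript has only 2460 stretches of 31 bases. The Bhmt row also held only 36.3% to 53.2% of the counts of the rows described as Bhmt. Its place among the members is therefore uncertain. In controls Pemt (204 ± 12.2 CPM per kilobase, SD, n = 3), Bhmt (191 ± 95.7) and Pcyt2 (127 ± 22.3) formed the upper tier, in which Bhmt did not differ from either neighbour beyond its spread. Chpt1 (20.1 ± 2.57), Cept1 (18.3 ± 2.56), Chkb (16.2 ± 4.36), Gpcpd1 (11.9 ± 3.33), Pcyt1a (10.9 ± 0.907) and Chdh (10.4 ± 2.58) followed, and each differed from its neighbours in that order by less than the larger SD of the pair. Chka was the lowest at 3.07 ± 1.10. With DEHP, Gpcpd1 reached 45.8 ± 14.2 CPM per kilobase and moved from rank 7 to rank 4, above Chpt1 (35.8 ± 4.77), although those 2 overlapped in range. The ranks of Pemt, Bhmt, Pcyt2, Chdh and Chka were the same in both groups.

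The genes whose profile was most like that of Gpcpd1 were found by the root-mean-square difference of mean-centred log2 CPM over the 6 libraries, among 8514 named genes with a mean of at least 5 CPM. The closest were Cyp7a1 (difference 0.36 on the log2 scale), Cd36 (0.37), Naaladl2 (0.38), Sugct (0.40) and Cry1 (0.41), against a median of 1.06. Cyp7a1, which opens the main route from cholesterol to bile acids, had 33.7, 29.6 and 33.1 CPM in controls and 52.8, 138 and 119 CPM with DEHP. Cry1, a repressor of the circadian clock, had 6.73, 8.30 and 13.2 CPM in controls and 14.9, 34.6 and 32.5 CPM with DEHP. Neither passed (edgeR adjusted p = 0.120 for Cyp7a1 and 0.143 for Cry1). DEHP replicate 1 was the lowest exposed library for both and for Cd36 and Naaladl2, as it was for Gpcpd1. For Sugct it was DEHP replicate 3 (72.9 CPM, against 81.1 CPM in DEHP replicate 1). A shared order follows in part from the choice by profile. The labels give no time of day at which livers were taken, and its part was not tested. Among the other members Chpt1 was closest to Gpcpd1 (0.61, rank 82) and Bhmt farthest (1.35, rank 7611). These likenesses use the values that chose Gpcpd1 and are a description.

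The wider pathway was taken from lists by function that hold 62 genes besides the members, of which 58 had a row and 50 were tested. Of these 50, 0 passed an adjusted p of 0.05 (edgeR), while DESeq2 called 3 (Gde1, Lypla1 and Abca1), all higher, against 2.37% of all genes in either direction. By the unadjusted p, 10 were higher with DEHP and 3 were lower, against 6.11% and 6.97% of all genes. The groups did not overlap for 8 that were higher, against 9.17% of all genes, and for 4 that were lower, which is near the 8.57% over all genes. Of the 50, 30 were positive (60.0%, against 47.1% of all genes), and the median log2 fold change was 0.11, against -0.03 over all genes.

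Breakdown of glycerophosphodiesters and lysophospholipids, the step to which Gpcpd1 belongs, held 10 tested genes besides it. Of these, 4 were positive, against 47.1% of all genes (median log2 fold change -0.24). By the unadjusted p, 2 of them were higher and 2 were lower (6.11% and 6.97% over all genes). The groups did not overlap for 3 that were higher and 2 that were lower (9.17% and 8.57% over all genes). Gde1, another glycerophosphodiester phosphodiesterase, had 89.4, 112 and 118 CPM in controls and 190, 211 and 166 CPM with DEHP. Its groups were well apart, with a log2 fold change of 0.83 ± 0.19 (SE, edgeR adjusted p = 0.143). It passed with DESeq2 (adjusted p = 0.00816), with no low-count filter (0.00661) and without control replicate 3 (0.0306). The last of these fits kept only control replicates 1 and 2, which had the high interferon and macrophage levels. Lypla1, a lysophospholipase and acyl-protein thioesterase, stood at 101 ± 18.3 and 170 ± 31.7 CPM (SD, n = 3; log2 fold change 0.75 ± 0.21, edgeR adjusted p = 0.191, and 0.0378 with DESeq2). Its relative Lypla2 lay the other way, at 100.4 ± 12.2 and 61.8 ± 18.5 CPM (-0.70 ± 0.23, adjusted p = 0.247). Pnpla7, a lysophospholipase that yields glycerophosphocholine, was 115, 109 and 123 CPM in controls and 78.9, 85.9 and 79.1 CPM with DEHP (-0.50 ± 0.18, adjusted p = 0.280). Without control replicates 1 and 2 the log2 fold change was 0.69 for Gde1, 0.76 for Lypla1, -0.54 for Lypla2 and -0.58 for Pnpla7. The exposed libraries lay below the controls for Pnpla7 and Lypla2 and above them for Lypla1, so these lysophospholipases differed in direction. They were named for their separate groups, and none of them passed in the filtered edgeR fit. Pnpla6, a relative of Pnpla7 named after its values were seen, had 31.3, 24.2 and 37.1 CPM in controls and 31.7, 12.5 and 20.5 CPM with DEHP, with overlapping groups. Gdpd1, also named after its values were seen, was low, at 0.521 ± 0.0679 and 1.47 ± 0.472 CPM (SD, n = 3). Its groups were separate (log2 fold change 1.47 ± 0.71, edgeR adjusted p = 0.393).

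**Figure D4:**
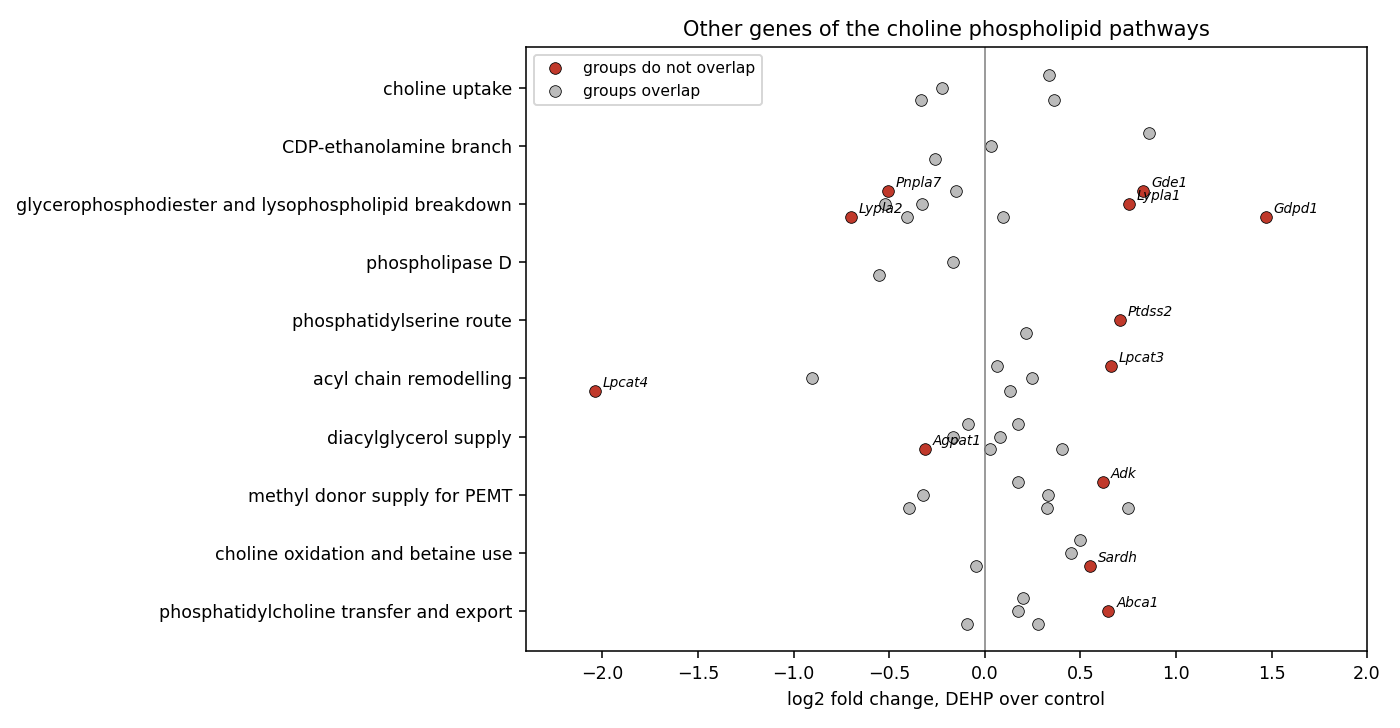
Log2 fold change of DEHP over control (horizontal axis) for the 50 tested pathway genes that are not members, a row per list; red points and names mark genes whose groups do not overlap. Red points lie on both sides of 0 in the breakdown list, where Gdpd1, Gde1 and Lypla1 are higher and Pnpla7 and Lypla2 lower.

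Acyl chain remodelling had 6 tested genes, of which 1 was higher and 1 lower by the unadjusted p (6.11% and 6.97% over all genes). Lpcat3, which puts polyunsaturated chains into lysophosphatidylcholine, was 57.1, 78.0 and 82.3 CPM in controls and 113, 111 and 120 CPM with DEHP (log2 fold change 0.66 ± 0.20, edgeR adjusted p = 0.208). The exposed values were tightly grouped above the controls. Lpcat4, at 2.10 ± 1.13 and 0.502 ± 0.189 CPM (SD, n = 3), was among the least abundant of the genes named (-2.04 ± 0.70, adjusted p = 0.271). For phosphatidylserine, Ptdss2, which makes it from phosphatidylethanolamine, had 10.8, 9.96 and 12.4 CPM in controls and 16.7, 16.0 and 21.4 CPM with DEHP (0.71 ± 0.24, adjusted p = 0.260), and 2 of 2 tested genes were positive. Among 5 genes of phosphatidylcholine transfer and export, 4 were positive. Over all genes 47.1% were positive, and lists of 2 or 5 genes are too small to show a trend. Abca1, the transporter that loads phospholipid and cholesterol onto apolipoprotein A-I, had 67.6 ± 4.54 and 106 ± 7.30 CPM (0.65 ± 0.18, adjusted p = 0.191, and 0.0393 with DESeq2). Without control replicates 1 and 2 the log2 fold change was 0.49 for Lpcat3, -1.36 for Lpcat4, 0.55 for Ptdss2 and 0.56 for Abca1.

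No gene around the methyl cycle passed in the filtered edgeR fit. Of 7 tested genes of methyl donor supply 5 were positive (47.1% over all genes), and by the unadjusted p 2 were higher and 0 lower (6.11% and 6.97% over all genes). Adk, adenosine kinase, which removes the adenosine left by methyl transfer, had 451, 708 and 545 CPM in controls and 809, 1048 and 756 CPM with DEHP (log2 fold change 0.62 ± 0.22, edgeR adjusted p = 0.282). Of 4 genes of choline oxidation and betaine use besides the members 3 were positive. Sardh, sarcosine dehydrogenase, had 817, 821 and 1066 CPM in controls and 1167, 1219 and 1572 CPM with DEHP (0.55 ± 0.21, adjusted p = 0.303), and its log2 fold change was 0.32 without control replicates 1 and 2. For both genes the groups did not overlap.

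In lists with no gene that had separate groups and an unadjusted p under 0.05, an abundant gene is described instead. Etnk2, an ethanolamine kinase, had 388 ± 74.2 CPM in controls and 398 ± 39.0 CPM with DEHP (SD, n = 3; log2 fold change 0.03 ± 0.20, edgeR adjusted p = 0.960). Pld2, a phospholipase D, had 11.2 ± 3.71 and 7.62 ± 1.14 CPM (-0.55 ± 0.31, adjusted p = 0.461). Its log2 fold change was -0.28 without control replicate 1 and -0.00402 without control replicates 1 and 2. Lpin2, a phosphatidate phosphatase that supplies diacylglycerol, had 426 ± 52.9 and 479.5 ± 125 CPM (0.17 ± 0.22, adjusted p = 0.779). Pcyt1b, the second phosphocholine cytidylyl transferase, had at most 4 counts in any library and was not tested, and the choline transporters Slc44a5 and Slc5a7 had 0 counts in all 6.

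**Figure D5:**
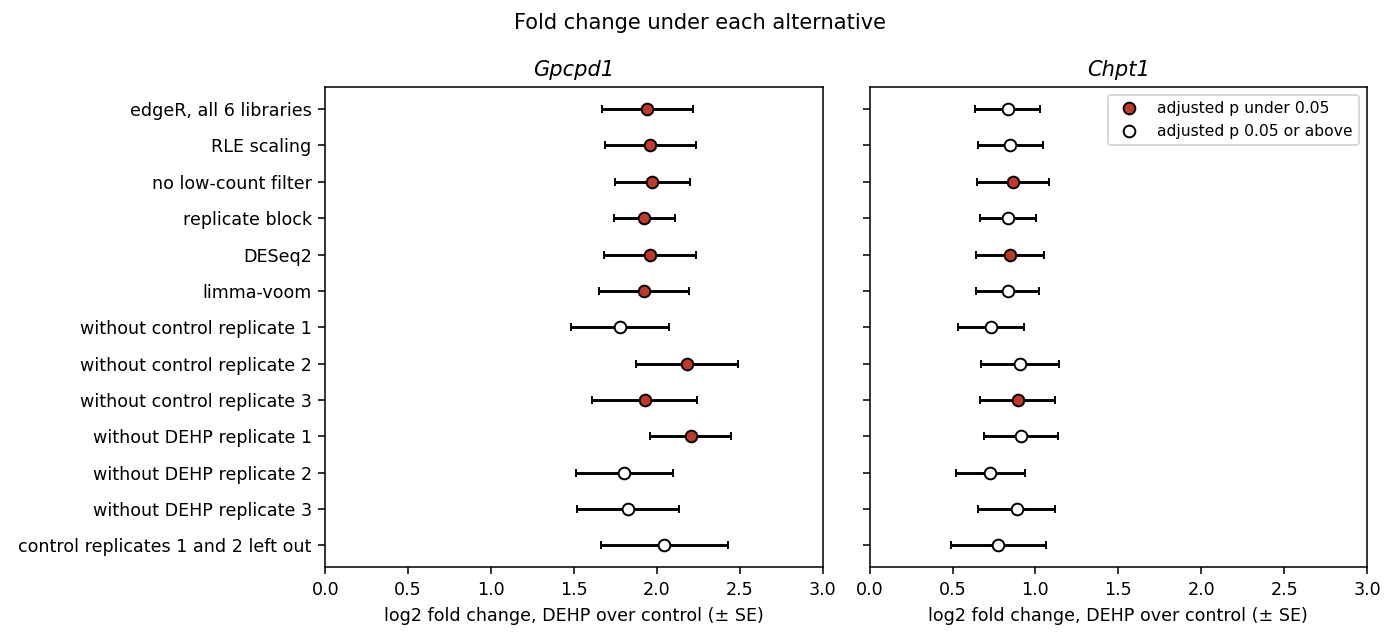
Log2 fold change of Gpcpd1 and Chpt1 (horizontal axes, bars of 1 SE) under each alternative; filled points have an adjusted p under 0.05. Both genes stay above 0 in every fit shown, and filled and open points occur for each.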

How the data were processed

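Liver mRNA libraries were directional and read from both ends, per the labels' protocols. The submitters' processing notes name GRCm38.p6 as the build, while the deposited counts have gene identifiers and coordinates of the C57BL/6NJ genome. Those coordinates cannot be set against the positions of the GRCm38.p6 promoter windows. The authors deposited raw counts per gene for 6 libraries. For aligner, counter and strand setting no statement was found in the sources used here, so reads of overlapping genes cannot be told apart. Columns headed Control and High were matched to the titles without and with DEHP by number; the dose behind High is not given in the labels. The series' design text describes another assay and was not used. The 1284 rows with no gene name (2.73% to 4.28% of counts) stayed out of library sizes and tests. Gene lengths come from another deposited column.

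The comparison used edgeR 4.0.16 under R 4.3.3 (filterByExpr at a minimum count of 10, TMM, robust quasi-likelihood, group as the only term, two-sided). P-values were adjusted by Benjamini-Hochberg over 12468 genes, with a threshold of 0.05 and SE from the F statistic. CPM use TMM-scaled totals, and profiles use log2 CPM with a prior count of 2. Members and lists were chosen with earlier results of these data known. Named genes were all members; per list, up to 4 others with an unadjusted p under 0.05 and separate groups, or else the most abundant; and the 5 profiles most like Gpcpd1. A gene picked by this rule is not reported here. Alternatives were RLE, no filter, DESeq2 1.42.0, limma-voom (limma 3.58.1), a replicate block and libraries left out. The fit was tested on simulated data. Same-group libraries were not duplicates of each other: chi-square over its degrees of freedom was 28.4 or more.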

Additional observations from a re-analysis of the deposited data

How the results depend on the processing

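Over all genes, 496 passed with no low-count filter, 272 with DESeq2, 0 with control replicates 1 and 2 left out (edgeR, 642 at an unadjusted p of 0.05) and 5 to 400 with 1 library left out (400 without control replicate 3, 19 without DEHP replicate 1), against 9. Of the members, 2 passed with no filter and with DESeq2 (Gpcpd1 and Chpt1), 0 without control replicates 1 and 2, and 0 to 2 with 1 library left out: 2 without control replicate 3, and 0 when the library left out was control replicate 1 or DEHP replicate 2 or 3. Of the other pathway genes, 4 passed with no filter (Etnppl, Gde1, Gnmt and Lypla1), 3 with DESeq2 and 0 to 2 with 1 library left out (2 without control replicate 3, Etnppl and Gde1). The number of genes tested differed between fits. Over all genes tested, the share that passed was 2.41% with no filter, 2.37% with DESeq2 and 3.10% without control replicate 3. It was 0.0722% in the filtered edgeR fit of all 6 libraries. The no-filter fit gave Pemt and Chka nearly the same SE despite their unlike spread, as given above. Etnppl and Gnmt lie outside the naming rule and were named after their values were seen. RLE scaling and limma-voom changed no call among members and named genes. Same-numbered libraries did not deviate together (correlations -0.02, 0.06 and -0.03, and only replicate 2 correlated best with its own number), and with a replicate block 6 genes passed.

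Direction changed for genes near 0. With control replicates 1 and 2 left out, log2 fold changes were -0.40 for Chka, -0.0103 for Pemt, -0.0547 for Chdh, -0.16 for Etnk2 and -6.93e-04 for Lpin2. With 1 library left out they ran from -0.16 to 0.38 for Chka, -0.74 to 0.44 for Bhmt, -0.11 to 0.17 for Etnk2 and -0.0358 to 0.31 for Lpin2. Bhmt was at 0.00331 with no filter and 0.11 with its 3 rows summed. In all, 310 of the alternative values for members and named genes, those most like Gpcpd1 included, kept their direction and side of the threshold, 14 changed direction, 18 newly passed and 6 no longer passed. The cause was not tested. Every member held 315 counts or more in each library.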

Other observations

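Rows with no symbol whose description names a pathway gene were outside the lists and are given as values. A pair of rows described as Ahcy, adenosylhomocysteinase, which clears the product of methyl transfer, had 696 ± 284 and 1187 ± 472 CPM (SD, n = 3; log2 fold change 0.77 ± 0.35, edgeR adjusted p = 0.389) and 172 ± 24.1 and 285 ± 48.8 CPM (0.72 ± 0.20, adjusted p = 0.191). The groups did not overlap for the second of them. A row described as Selenoi, the ethanolamine phosphotransferase, had 31.1 ± 11.9 and 37.6 ± 3.11 CPM (0.28 ± 0.24, adjusted p = 0.676). The row described as Pisd had 13.2 ± 2.62 and 14.6 ± 1.22 CPM (0.15 ± 0.24, edgeR adjusted p = 0.841). That described as Flvcr1 had 2.95 ± 0.622 and 3.69 ± 0.353 CPM (0.32 ± 0.41, edgeR adjusted p = 0.785).

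Lpin1, a phosphatidate phosphatase of diacylglycerol supply picked after its values were seen, had 117, 213 and 306 CPM in controls and 209, 378 and 83.5 CPM with DEHP (log2 fold change 0.08 ± 0.64, edgeR adjusted p = 0.972). As for Bhmt, its highest and lowest libraries were both exposed, but DEHP replicate 3 was its lowest and the highest for Bhmt.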
